A study of Oryza sativa Japonica Group with 10 samples.

Results

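The shoot transcriptome of rice held 1014 loci that the deposited tables name newGene, each with a number in place of an annotation, among 55689 gene IDs in all. The 242 of them with a mean of at least 5 FPKM over 10 libraries are described here. FPKM counts fragments after scaling by transcript length and library size, and was summed over the transcripts of a locus. The 242 members were chosen by this mean FPKM, so their levels are a description and were not tested. The IDs say nothing about function, so each member was described by its length, its place in the genome, its level, its response to drought and its difference between genotypes. Each is written below without the species prefix of the files, as newGene_490.

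When RNA-seq fragments are placed on a genome, some fall outside every annotated gene and can be joined into new transcripts. Such loci can be long non-coding RNAs, genes of small proteins, transcripts of mobile elements, RNAs on the opposite strand of a known gene, or unannotated ends of a neighbouring gene. Their distance to the nearest annotated gene, their strand and their shared changes with that neighbour are the usual descriptions. Which of these kinds a member belongs to cannot be read from the values used here, and the sources used here do not give how the new loci were assembled.

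The plants were wild-type Zhonghua 11 (ZH11), a japonica rice variety, and OsJAZ1-OE, a transgenic line in the same background. OsJAZ1 encodes a JAZ protein, a repressor of jasmonate signaling, and in OsJAZ1-OE it is driven by the drought-inducible OsLEA3 promoter. Shoots were taken at the four-leaf stage from plants under normal conditions or under drought, when the soil held 10 to 15% water. Each genotype had 3 normal and 2 drought libraries, since the paper left out the third drought replicate of each for its low correlation coefficient. The OsJAZ1-OE libraries all come from 1 line, OE-1, so what overexpression does and what is particular to that line cannot be told apart.

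The library totals lay between 32396154 and 34027909 estimated fragments, of which the members took 0.652 to 0.686%. The 5 markers of green shoot were at 259 to 4975 FPKM in every library. Of the root markers, RCc3 (LOC_Os02g44310) reached at most 0.654 FPKM, OsIRT1 (LOC_Os03g46470) 2.19 to 3.94 FPKM and Lsi1 (LOC_Os02g51110) 4.52 to 11.6 FPKM. The 2 seed glutelin genes stayed at or below 4.27 FPKM. Some of these markers moved with drought: Lsi1 had a mean of 4.75 FPKM in normal and 10.8 FPKM in drought libraries of ZH11, and of 5.13 and 7.72 FPKM in OsJAZ1-OE. The mean of the Rubisco small subunit gene LOC_Os12g17600 was 2912 and 1015 FPKM in ZH11, and 2863 and 1031 FPKM in OsJAZ1-OE. Their part in the results was not tested. OsJAZ1 (LOC_Os04g55920) had a mean of 114 FPKM in ZH11 and 1240 FPKM in OsJAZ1-OE under normal conditions, and of 137 and 1282 FPKM under drought. In bulk shoots, fewer cells of a type and less RNA per cell cannot be told apart.

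The members covered a wide range of levels, and most were modest. Their mean FPKM ran from 5.06 to 593, with a median of 12.8 and quartiles of 7.37 and 25.3. Of the 242, 146 were at 10 FPKM or more, 30 at 50 or more and 14 at 100 or more. The median of the other gene IDs at 5 FPKM or more was 18.5. Of all new genes 23.9% reached 5 FPKM, against 27.2% of the other IDs. The members just inside the threshold were newGene_2014 at 5.19, newGene_1758 at 5.09 and newGene_1210 at 5.06 FPKM. Just outside lay newGene_28 at 4.82, newGene_1556 at 4.80 and newGene_1898 at 4.80 FPKM.

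The most abundant member, newGene_490, is a 714-base transcript with 1 row in the files, on the minus strand of chromosome 11 from 13506328 to 13507283. Positions here and below are those of the authors' files, and their genome build is not named in the sources used. In ZH11 newGene_490 was at 546, 541 and 532 FPKM in the normal libraries and at 609.7 and 616 FPKM under drought. In OsJAZ1-OE it was at 566, 486 and 549 FPKM under normal conditions and at 767 and 713 FPKM under drought. It was thus above 480 FPKM in every library, with both drought groups above their normal groups in FPKM. In the test of counts described below, the rise passed by adjusted p in OsJAZ1-OE, with a log2 fold change of 0.40. In ZH11 the rise of newGene_490 did not pass. Its nearest annotated ID, LOC_Os11g23860, lies 2576 bases away and was listed at 0 FPKM.

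The 10 most abundant members were short, between 245 and 889 bases, and 9 of them had 1 transcript row. After newGene_490 came newGene_2001 at a mean of 355 FPKM, newGene_1710 at 271, newGene_1253 at 251, newGene_1268 at 227 and newGene_1205 at 227. They were followed by newGene_1704 at 194 FPKM, newGene_1255 at 176, newGene_1745 at 159.9 and newGene_452 at 159.8. These members lay on chromosomes 4, 7, 9 and 11, with 4 of them on chromosome 4. Together the 10 took 12.4 to 14.8% of the fragments that fell on members.

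Length and level were linked through the unit itself. For members with 1 transcript, the number of fragments behind 1 FPKM, per kilobase of transcript, had a median of 10.2 in the 14 members of up to 500 bases. It was 19.3 in the 51 members of 500 to 1000 bases, 28.2 in the 36 of 1000 to 2000 bases and 43.0 in the 7 longer ones. With plain division by length these values would be equal, so the deposited FPKM gives short transcripts a higher level than their fragments per base. On counts scaled plainly by the longest transcript and the library size (plain length below), 178 members stayed at 5 or more and 10 other new genes joined them. By that measure newGene_490 kept rank 1 and newGene_2001 took rank 53.

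newGene_2001 shows the size of this effect. It is 245 bases long, the shortest member, on the plus strand of chromosome 9 from 11447737 to 11449700. Its mean of 355 FPKM rested on a mean of 168 fragments per library, and on plain length it was 20.7. newGene_1558, at 251 bases, had 31.2 FPKM from a mean of 10.7 fragments, the lowest count of any member. The 5 shortest members also held newGene_1422 (371 bases, 17.0 FPKM), newGene_997 (381 bases, 7.14 FPKM) and newGene_1074 (385 bases, 21.5 FPKM).

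At the other end stood long loci with low FPKM and many fragments. newGene_1368 on chromosome 5, from 8264614 to 8291006 with 13 transcript rows, was at 22.2 FPKM and had a mean of 7749 fragments, the highest of all members. newGene_977 on chromosome 3, from 1048895 to 1075476, was at 21.3 FPKM with 7362 fragments. newGene_1224 on chromosome 4 held the longest transcript, of 14883 bases, at 7.54 FPKM and 6099 fragments. newGene_2014 and newGene_1379, with transcripts of 6639 and 6108 bases, were at 5.19 and 5.37 FPKM. Counting error therefore weighed little on these long members and much on newGene_1558.

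**Figure D1:**
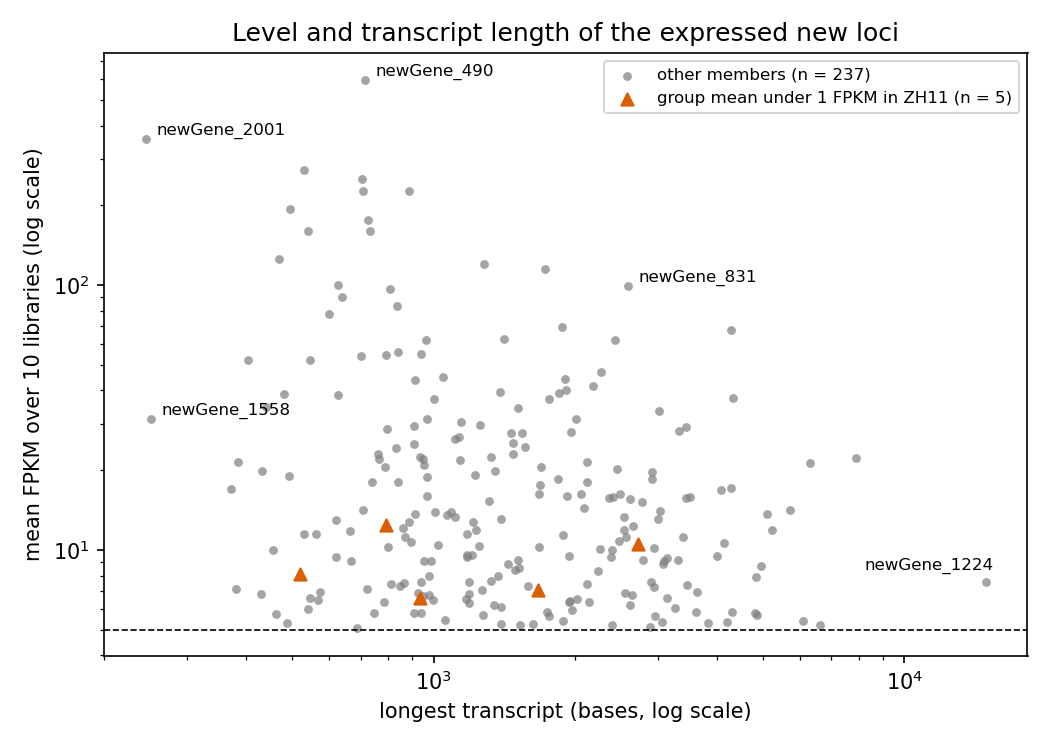
Mean FPKM over the 10 libraries against the longest transcript in bases for the 242 members, both axes on a log scale, with 1 point per member and the threshold of 5 FPKM dashed. The members above 100 FPKM are mostly under 1000 bases long, newGene_1224 stands alone at 14883 bases, and the triangles mark the 5 members whose ZH11 group means were under 1 FPKM.

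The longest transcript of a member had a median of 1345 bases, with quartiles of 862.5 and 2451, against 1609.5 bases for the 772 new genes below 5 FPKM. The other IDs at 5 FPKM or more had a median of 1917 bases. The 30 members at 50 FPKM or more had a median of 730.5 bases, and 23 of them were at most 1000 bases long. The genomic span of a member exceeded its longest transcript in all 242, by a median of 1.53-fold and a range of 1.02 to 11.3-fold. The files do not list exons, so the difference between span and transcript can only be given as a length.

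Of the members, 108 (44.6%) had a single transcript row, against 61.1% of the new genes below 5 FPKM. The other 134 had up to 20 rows. Among these 134, the most abundant row carried a median of 65.0% of the locus's FPKM, with a lowest share of 13.8%, and 24 loci had a row with 90% or more. The most abundant row was the longest one in 25 of the 134. In newGene_1231, for example, the longest transcript has 4082 bases, and a 721-base row carried 91.8% of its FPKM.

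Members lay on all 12 chromosomes, from 12 on chromosomes 5 and 9 to 33 on chromosome 4, and 1 lay on the extra sequence that the files call ChrSy. Chromosome 4 held 13.6% of members and 8.49% of the other IDs at 5 FPKM or more. Chromosome 11 held 11.6% of members and 4.54% of those other IDs. Chromosome 3 went the other way, with 9.09 and 14.2%. There were 112 members on the plus strand and 130 on the minus strand.

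Members sat close to annotated genes. The gap to the nearest annotated ID had a median of 1015.5 bases, against 833.5 bases for the new genes below 5 FPKM. In 21 members the locus overlapped an annotated ID, in 99 the gap was under 1 kb, in 115 it was 1 to 10 kb and in 7 it was 10 kb or more. Where they did not overlap, 61 members lay downstream of the neighbour on its strand and 48 upstream on its strand. A further 63 lay tail to tail with the neighbour and 49 head to head. Head-to-head placement made up 20.2% of members and 25.1% of the new genes below 5 FPKM.

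**Figure D2:**
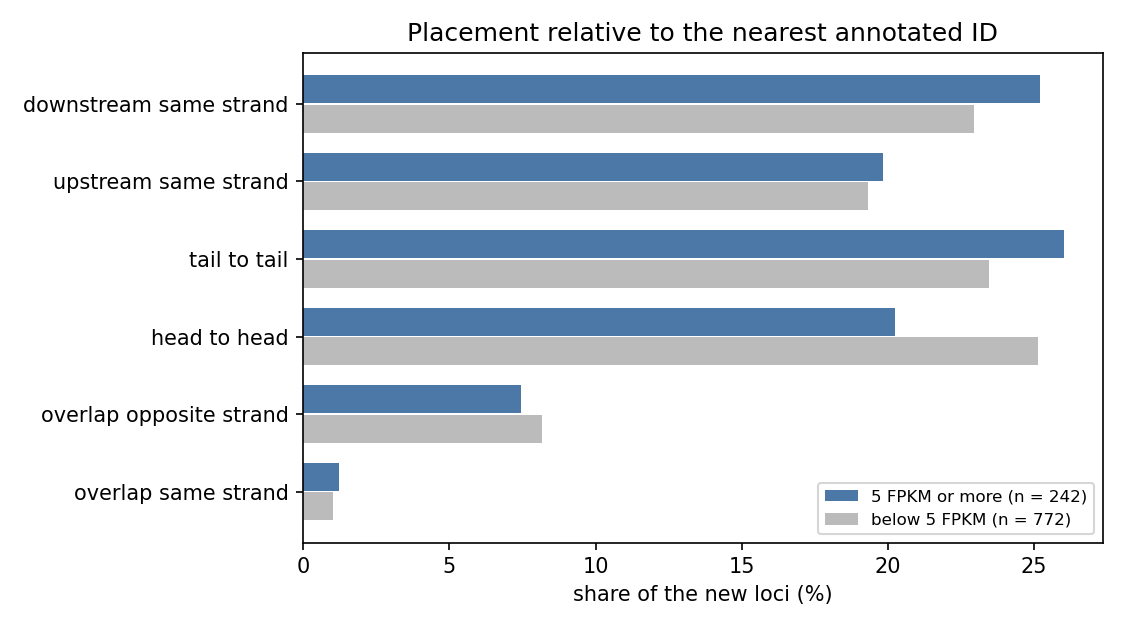
Share in percent of the 242 members and of the 772 new genes below 5 FPKM in each placement relative to the nearest annotated ID. The bars of both sets have similar lengths, with tail to tail the most frequent placement of members at 26.0% and head to head at 20.2% against 25.1%.

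Most members were more abundant than the gene beside them. Their mean FPKM was above that of the nearest annotated ID in 192 of the 242, and that neighbour was below 1 FPKM in 126. The rule of 5 FPKM itself favours that order. The neighbour reached 5 FPKM in 86 members. The 7 members with the widest gaps were newGene_488, newGene_436 and newGene_456 on chromosome 11, newGene_1226 and newGene_1280 on chromosome 4, newGene_1669 on chromosome 7 and newGene_1997 on chromosome 9. They had means of 9.35 to 44.8 FPKM, and newGene_488 lay farthest from any annotated ID, at 73445 bases. These 7 were named after their values were seen.

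In 18 of the 21 overlapping members the annotated ID ran on the opposite strand. The libraries were made with a kit that is not stated to keep strand, so fragments of such a pair cannot be told apart by strand. These 18 members were at 5.30 to 52.2 FPKM, with a median of 8.45, and 13 of them were above their neighbour. Of the 3 on the same strand, newGene_452 was at 159.8 FPKM, and the annotated LOC_Os11g38959 that spans it was at 187 FPKM.

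Among the members, 7 pairs lay within 10 kb of each other, made of 13 members, and 4 pairs overlapped on opposite strands. newGene_1205 and newGene_1260 on chromosome 4 shared 2391 bases, at 227 and 12.3 FPKM. newGene_473 and newGene_427 on chromosome 11 shared 1419 bases, at 83.2 and 62.7 FPKM. newGene_1223 and newGene_1276 on chromosome 4 shared 889 bases, at 54.3 and 18.1 FPKM, and newGene_20 and newGene_83 on chromosome 1 shared 5104 bases, at 20.6 and 19.1 FPKM. newGene_84 lay 8352 bases from newGene_20. The other pairs were newGene_1280 with newGene_1279 on chromosome 4, 1864 bases apart, and newGene_419 with newGene_416 on chromosome 11, 4684 bases apart.

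Many members were steady across all conditions. The coefficient of variation over the 10 libraries had a median of 13.2%, and 76 members (31.4%) were under 10%, against 37.4% of the other IDs at 5 FPKM or more. The steadiest were newGene_818 on chromosome 2, which ranged from 14.8 to 16.7 FPKM, and newGene_844 on chromosome 2, from 35.0 to 40.6 FPKM. newGene_2120, the member on ChrSy, stayed within 9.30 and 10.8 FPKM. These 3 were chosen after their values were seen. Of the members, 211 had a mean of at least 5 FPKM in each of the 4 groups, 31 had a group mean under 5 and 5 had a group mean under 1.

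Drought changed few members by 2-fold or more, in either genotype. Counts of all 10 libraries were fitted with edgeR's quasi-likelihood test, and calls needed an adjusted p under 0.05 together with a change of 1 or more, up or down, on the log2 scale. In ZH11, 14 of 242 members were called, 7 up and 7 down (5.79%), where 14.4% of all 24850 genes tested were called, 5.33% up and 9.03% down. In OsJAZ1-OE, 9 members were called, 6 up and 3 down (3.72%), where 11.0% of all genes were, 4.36% up and 6.62% down. Of the other IDs at 5 FPKM or more, 10.6 and 7.87% were called. All 242 members were among the genes tested. The 31 members with a group mean under 5 FPKM held 6 of the 14 calls in ZH11 and 5 of the 9 in OsJAZ1-OE.

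More members passed without the fold limit, though at smaller shares than over all genes. By adjusted p alone, 73 members passed in ZH11 (32 up, 41 down, 30.2%, with 44.4% over all genes, 21.6% up and 22.8% down) and 77 passed in OsJAZ1-OE (39 up, 38 down, 31.8%, with 39.0% over all genes, 19.1% up). Of the other IDs at 5 FPKM or more, 51.9% passed in ZH11 and 46.3% in OsJAZ1-OE. The log2 fold change of the members had a median of 0.02 in each genotype, where the median over all genes was 0.00. In ZH11, 199 members (82.2%) changed by less than 0.5 in size on the log2 scale, and in OsJAZ1-OE 209 (86.4%). Those that passed in both genotypes were 22 up and 28 down, where 15.1 and 16.7% of all genes did so, and no member passed in opposite directions. With the fold limit, 5 members were called up and 3 down in both genotypes, where 3.63 and 5.65% of all genes were, and 15 were called in at least 1. Beside the values below, drought and normal libraries did not overlap in FPKM in 62.4% of all genes in ZH11 (31.1% higher, 31.3% lower) and in 61.3% in OsJAZ1-OE (29.8% higher, 31.6% lower).

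newGene_1231 had the largest increase. It lies on the minus strand of chromosome 4 from 4645274 to 4650693, with 4 transcript rows. In ZH11 it was at 3.02, 1.55 and 2.86 FPKM under normal conditions and at 41.3 and 44.9 FPKM under drought. The OsJAZ1-OE libraries were at 3.16, 2.59 and 0.998 FPKM and at 40.5 and 27.4 FPKM. The lowest drought library, at 27.4 FPKM, lay far above the highest normal one, at 3.16 FPKM. newGene_1231 was a member only through its drought libraries, so it had to be higher there. The log2 fold change was 3.63 for ZH11 plants (standard error 0.15, edgeR's adjusted p = 3.57e-08) and 3.57 for OsJAZ1-OE plants (standard error 0.15, edgeR's adjusted p = 6.61e-08). The neighbour LOC_Os04g08570, 776 bases away, was too low to be tested.

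newGene_831 had the highest mean FPKM of the members called up under drought with the fold limit. It lies on the minus strand of chromosome 2 from 22369899 to 22374769, with a longest transcript of 2589 bases. In ZH11 its normal libraries were at 41.9, 40.5 and 37.8 FPKM and its drought libraries at 188 and 186 FPKM. In OsJAZ1-OE the values were 39.2, 36.4 and 30.2 FPKM, and 211 and 179.7 FPKM under drought. The groups were far apart and tight, and the log2 fold changes were 2.22 in ZH11 (adjusted p = 2.09e-08 from edgeR) and 2.40 in OsJAZ1-OE (adjusted p = 1.48e-08 from edgeR). Its neighbour on the same strand, LOC_Os02g37030, 2473 bases away, was at 41.2 FPKM and had log2 fold changes of 0.19 and 0.17, neither of which passed the test (adjusted p = 0.0507 and 0.0798 from edgeR).

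newGene_113 rose together with the gene beside it. This 432-base transcript on the minus strand of chromosome 1, from 24390943 to 24391809, was at 6.53, 5.70 and 8.54 FPKM in ZH11 under normal conditions and at 34.3 and 37.4 FPKM under drought. The OsJAZ1-OE libraries were at 9.08, 7.88 and 9.45 FPKM, then at 48.0 and 31.7 FPKM. Both drought groups lay above all normal libraries. The log2 fold change was 2.32 in ZH11 (adjusted p = 1.44e-05 from edgeR) and 2.09 in OsJAZ1-OE (adjusted p = 3.69e-05 from edgeR). LOC_Os01g42860, head to head with it at 1032 bases, rose by 2.35 and 1.78 on the log2 scale and was called in both genotypes.

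newGene_2031 overlaps an annotated ID that changed the same way. It lies on the minus strand of chromosome 9 from 11090581 to 11092878 and shares 2121 bases with LOC_Os09g18090 on the plus strand. In ZH11 it went from 9.12, 9.18 and 8.41 FPKM to 20.9 and 22.7 FPKM, and in OsJAZ1-OE from 10.1, 7.83 and 9.14 FPKM to 23.2 and 18.99 FPKM. No drought library overlapped a normal one. The log2 fold changes were 1.24 and 1.19 for newGene_2031 (adjusted p = 2.55e-05 and 4.89e-05 from edgeR), and 1.35 and 1.23 for LOC_Os09g18090, whose mean was 0.529 FPKM. As for the other overlapping pairs, keeping of strand is not stated, so fragments of the 2 loci cannot be told apart here.

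newGene_1869 and newGene_1215 also rose. newGene_1869, on chromosome 8 from 1014862 to 1017129, was at 2.84, 4.52 and 3.11 FPKM and then at 9.49 and 10.8 FPKM in ZH11, and at 2.98, 3.26 and 3.91 and then 10.4 and 7.98 FPKM in OsJAZ1-OE. Its log2 fold changes were 1.51 (adjusted p = 1.0e-04 from edgeR) and 1.41 (adjusted p = 2.31e-04 from edgeR). All its normal libraries were under 5 FPKM, so it was a member only through its drought libraries and had to be higher there. Its neighbour LOC_Os08g02490 passed in the same direction with 0.74 and 0.51, under the fold limit. newGene_1215, on chromosome 4 from 29163324 to 29165173, went from 11.5, 13.0 and 14.3 FPKM to 31.5 and 41.3 FPKM in ZH11. In OsJAZ1-OE it went from 14.1, 17.1 and 16.5 FPKM to 29.8 and 31.5 FPKM. It was called in ZH11 (1.49, adjusted p = 8.48e-06 from edgeR) and rose by 0.92 in OsJAZ1-OE (adjusted p = 3.19e-04 from edgeR), below the fold limit.

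newGene_825 shows how the fold limit splits near-equal changes. On chromosome 2 from 19346573 to 19351638, it was at 6.18, 6.50 and 7.10 FPKM in ZH11 under normal conditions and at 13.1 and 13.6 FPKM under drought. OsJAZ1-OE libraries had 5.59, 6.16 and 4.41 FPKM and then at 12.4 and 11.8 FPKM. It was called in OsJAZ1-OE (log2 fold change 1.18, adjusted p = 1.75e-05 from edgeR), while the value of 1.00 in ZH11 fell short of the limit by less than 0.01 (adjusted p = 3.53e-05 from edgeR). newGene_56, on chromosome 1 from 35781017 to 35782954, was called in ZH11 with 1.10 (adjusted p = 0.00451 from edgeR) and is named here after its values were seen. Its ZH11 drought libraries differed, at 43.6 and 20.4 FPKM, over normal libraries at 17.4, 16.0 and 11.1 FPKM. Without ZH11 drought replicate 1 its log2 fold change was 0.47 (adjusted p = 0.0644 from edgeR).

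**Figure D3:**
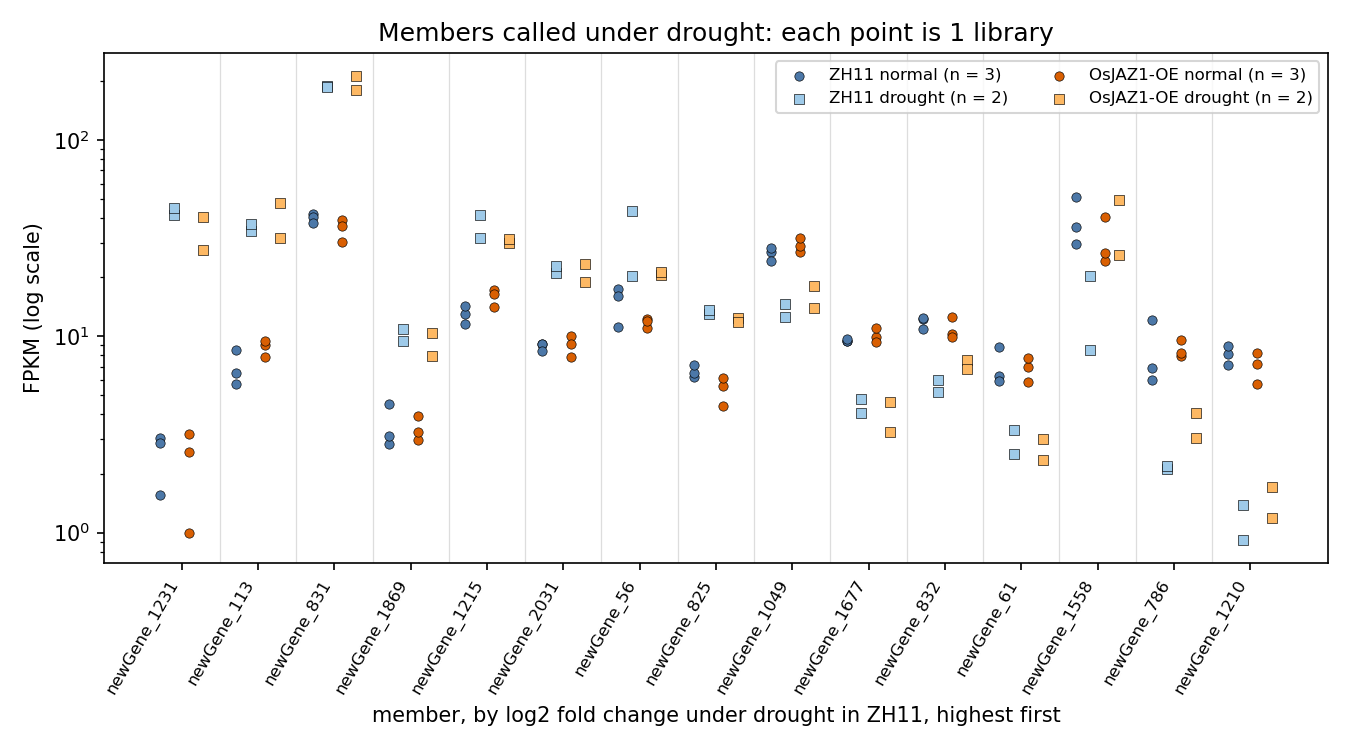
FPKM on a log scale of the 15 members called under drought in at least 1 genotype, with 1 point per library and the 4 groups in separate colours. newGene_1231 moves from at most 3.16 FPKM to at least 27.4 FPKM in both genotypes, newGene_831 from at most 41.9 FPKM to at least 179.7 FPKM, and newGene_1210 from at least 5.75 FPKM to at most 1.72 FPKM.

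The largest decrease was in newGene_1210, the member with the lowest mean. It lies on the plus strand of chromosome 4 from 25949552 to 25950380, head to head with LOC_Os04g43820 at 2655 bases. In ZH11 it was at 7.13, 8.08 and 8.93 FPKM under normal conditions and at 0.920 and 1.39 FPKM under drought, and in OsJAZ1-OE at 5.75, 7.22 and 8.25 and then at 1.72 and 1.19 FPKM. Every drought library was below every normal library. newGene_1210 was a member only through its normal libraries, so it had to be higher there. The log2 fold change was −2.87 in ZH11 (adjusted p = 2.61e-05 from edgeR) and −2.25 in OsJAZ1-OE (adjusted p = 1.47e-04 from edgeR). Its neighbour, at 74.2 FPKM, had −0.05 and 0.13, and did not pass.

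newGene_786 and newGene_1677 were lower under drought in both genotypes. All their drought libraries were under 5 FPKM, so both were members only through their normal libraries and had to be higher there. newGene_786, on chromosome 2 from 33680039 to 33681580, was at 6.90, 12.1 and 5.95 FPKM and then at 2.10 and 2.19 FPKM in ZH11. OsJAZ1-OE had 7.92, 8.21 and 9.56 FPKM and then at 3.03 and 4.09 FPKM. Its log2 fold changes were −1.93 (adjusted p = 2.02e-04 from edgeR) and −1.39 (adjusted p = 0.00167 from edgeR). newGene_1677, on chromosome 7 from 4947391 to 4948849, was at 9.45, 9.50 and 9.64 FPKM and then at 4.05 and 4.80 FPKM in ZH11, and at 9.96, 11.0 and 9.37 and then 4.61 and 3.24 FPKM in OsJAZ1-OE. It fell by 1.12 in ZH11 (adjusted p = 3.03e-04 from edgeR) and by 1.35 in OsJAZ1-OE (adjusted p = 1.19e-04 from edgeR) on the log2 scale. Without ZH11 drought replicate 1 the ZH11 value was −0.98, inside the fold limit.

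In ZH11 4 further members were called down. newGene_832, on chromosome 2 from 22534193 to 22537818, fell from 12.2, 10.9 and 12.3 FPKM to 5.96 and 5.20 FPKM (log2 fold change −1.14, adjusted p = 8.21e-04 from edgeR). newGene_61, on chromosome 1 from 36531232 to 36536773, fell from 8.85, 6.29 and 5.94 to 3.35 and 2.51 FPKM (−1.24, adjusted p = 0.0106 from edgeR) on a mean of 17.9 fragments. Its neighbour on the same strand, LOC_Os01g63050 at 47.4 FPKM and 1011 bases away, passed in the same direction with −0.89. In OsJAZ1-OE newGene_832 passed with −0.66 and newGene_61 did not pass at −0.70. Both ZH11 drought libraries of newGene_61 were under 5 FPKM, so its membership rested on its other groups.

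newGene_1558 was the least certain of the calls. Its ZH11 libraries were at 51.3, 35.8 and 29.7 FPKM and then at 20.3 and 8.56 FPKM, from 19, 15, 12, 7 and 4 fragments. In OsJAZ1-OE the normal libraries, at 24.1, 26.5 and 40.5 FPKM, overlapped the drought libraries at 49.6 and 25.9 FPKM. The log2 fold change in ZH11 was −1.46 (standard error 0.47, edgeR's adjusted p = 0.0259). It did not pass with DESeq2, with no filter, without ZH11 drought replicate 2 or without ZH11 normal replicate 1. newGene_1049, on chromosome 3 from 14683095 to 14684186, was just past the limit at −1.02 (adjusted p = 3.24e-04 from edgeR), at −0.93 without ZH11 drought replicate 1, and is named after its values were seen.

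**Figure D4:**
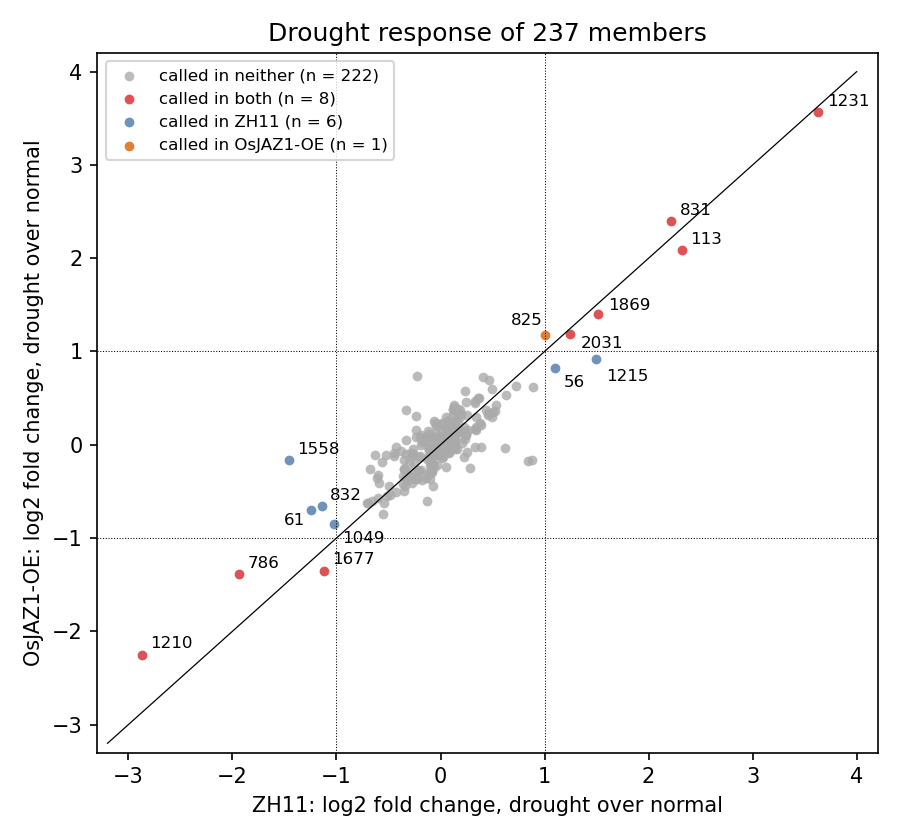
Log2 fold change under drought in OsJAZ1-OE against that in ZH11 for the 237 members with every group mean at 1 FPKM or more, with 1 point per member, the fold limit of 1 dotted and the line of equal change drawn. The 8 members called in both genotypes lie near the line at both ends, 222 members called in neither sit around 0, and newGene_1558 is far from the line with −1.46 against −0.16. The values of newGene_1558 rest on a mean of 10.7 fragments per library.

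The 10 most abundant members stayed inside the fold limit under drought in both genotypes. Of these 10, 2 passed in ZH11 by adjusted p, as 44.4% of all genes did, and none went past −0.55 or 0.20 on the log2 scale in that genotype. newGene_1205 was the most changed of them in both genotypes. It was at 235, 239 and 241 FPKM and then at 169.8 and 169 FPKM in ZH11, and at 264, 296 and 292 and then 166 and 197 FPKM in OsJAZ1-OE. It fell by 0.55 (adjusted p = 5.02e-04 from edgeR) and by 0.74 (adjusted p = 8.98e-05 from edgeR) on the log2 scale. newGene_1260, which overlaps it on the other strand, fell by 0.59 (adjusted p = 1.24e-04) and by 0.42 (adjusted p = 0.00161) in the same fit. newGene_1255 stayed between 162 and 205 FPKM while its neighbour LOC_Os04g33740, 5473 bases away and at a mean of 1.3 FPKM, had log2 fold changes of −5.92 and −5.30.

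In OsJAZ1-OE 6 of the 10 most abundant members passed upward, as 19.1% of all genes did, with log2 fold changes of up to 0.40 (newGene_490). newGene_1205 passed downward. In FPKM most of these short members were higher in OsJAZ1-OE drought replicate 1 than in replicate 2. newGene_1710 was at 426 and 296 FPKM there, newGene_1704 at 307 and 213 FPKM and newGene_2001 at 692 and 467 FPKM. Over the 26 members of up to 600 bases the median log2 ratio of replicate 1 to replicate 2 was 0.23 in FPKM, with 21 of 26 higher in replicate 1, and 0.17 in fragments scaled by library size. Over the 216 longer members it was 0.00 in FPKM. Other IDs of up to 600 bases at 5 FPKM or more had a median of 0.14 in FPKM, with 217 of 334 higher in replicate 1. In scaled fragments they had 0.02, with 174 of 334 higher. Between the ZH11 drought libraries the members of up to 600 bases had −0.03 in FPKM. In scaled fragments they had −0.20 there, with 6 of 25 higher in replicate 1, and the other short IDs −0.15. The part of these replicate differences in the results was not tested.

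Neighbours of members were called under drought at shares near those of other genes. The 242 members had 234 distinct nearest annotated IDs, of which 126 were tested. Of these, 13 (10.3%) passed both limits for ZH11 and 11 (8.73%) for OsJAZ1-OE, where 14.4 and 11.0% of all genes did. Among the other IDs at 5 FPKM or more the shares were 10.6 and 7.87%. Of the 8 called members in ZH11 with a tested neighbour, 2 had a neighbour called in the same direction, namely newGene_113 and newGene_2031. By adjusted p alone, 40 members passed in ZH11 and had a tested neighbour, which passed in the same direction in 12 and in the opposite one in 5. In OsJAZ1-OE these counts were 14 and 7 of 46. Of all tested neighbours, 34.9% passed in ZH11 and 36.5% in OsJAZ1-OE, and of all genes 44.4 and 39.0%.

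Of the 18 members that overlap an annotated ID on the other strand, 3 passed by adjusted p in ZH11, where 44.4% of all genes did, and 4 in OsJAZ1-OE, where 39.0% did. newGene_2031 and newGene_81 passed upward and newGene_131 passed downward in ZH11, and the same 3 passed that way in OsJAZ1-OE, where newGene_297 also passed upward. newGene_131 fell by 0.54 and by 0.63 on the log2 scale, and LOC_Os01g59265, which it overlaps by 5594 bases, had −0.08 and −0.02. The 3 other than newGene_2031 were named after their values were seen.

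Under normal conditions the genotypes differed in 5 members, all higher in OsJAZ1-OE (2.07%, where 1.59% of all genes were called, 1.34% upward and 0.241% downward). Under drought they differed in the same 5 and in newGene_2001, again all higher (2.48%, where 1.73% of all genes were called, 1.51% upward and 0.217% downward). The same 5 were the members with a ZH11 group mean under 1 FPKM, so they were members only through the OsJAZ1-OE libraries and had to differ. Their highest value in any ZH11 library was 0.391 FPKM, and their lowest in any OsJAZ1-OE library 8.29 FPKM.

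newGene_1418 was the most abundant of the 5 in OsJAZ1-OE. It is a 793-base transcript on the minus strand of chromosome 5 from 21347192 to 21351654. In ZH11 it was at 0.245, 0 and 0.067 FPKM under normal conditions and at 0.067 and 0.084 FPKM under drought. The OsJAZ1-OE libraries were at 24.8, 23.4 and 26.5 FPKM and at 24.8 and 23.7 FPKM. The OsJAZ1-OE libraries hardly varied, with or without drought. Summed over the group and rounded, 4 fragments in ZH11 stood against 1044 in OsJAZ1-OE under normal conditions, a 266-fold ratio (95% exact interval 104 to 979, counting error only). Under drought 2 fragments stood against 690.

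newGene_1908 on chromosome 8, from 19656524 to 19662011, has 4 transcript rows and a longest transcript of 2720 bases. It was at 0.027 to 0.359 FPKM in the 5 ZH11 libraries, and at 20.2, 21.3 and 20.4 and then 21.4 and 21.2 FPKM in OsJAZ1-OE. The ratio of summed fragments was 204-fold under normal conditions (95% interval 127 to 350.0) and 81.3-fold under drought (95% interval 55.7 to 124). The intervals here and below cover counting error only and leave out the spread between libraries. The fitted log2 difference of newGene_1908 under drought was 6.24. It was 8.02 without ZH11 drought replicate 1 and 5.47 without replicate 2. newGene_2028 on chromosome 9, from 9689846 to 9691535, had 2 fragments in ZH11 under normal conditions and none under drought. OsJAZ1-OE had 15.2, 18.03 and 14.3 and then 15.2 and 17.9 FPKM. Against a floor of 3 fragments over the ZH11 drought group, it was at least 80.6-fold higher in OsJAZ1-OE. It overlaps LOC_Os09g15850 on the other strand by 1504 bases, and that ID did not pass, at 0.27 and 0.29 on the log2 scale.

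newGene_1270 on chromosome 4, from 28366455 to 28368298, was at no more than 0.054 FPKM in ZH11. In OsJAZ1-OE it varied more than the others, at 8.29, 14.8 and 15.0 FPKM under normal conditions and at 19.3 and 12.8 FPKM under drought. Its ratio of summed fragments was 627-fold under normal conditions (95% interval 173 to 5187) and 516-fold under drought (95% interval 143 to 4271). newGene_2042 on chromosome 9, from 17511851 to 17512891, was at 0.081 to 0.391 FPKM in ZH11, and at 12.2, 10.9 and 11.1 and then 17.6 and 13.0 FPKM in OsJAZ1-OE. Its ratios were 69.0-fold (95% interval 39.3 to 134) and 63.6-fold (95% interval 35.3 to 128). No drought response of any of the 5 passed the test in OsJAZ1-OE, where their log2 fold changes ran from −0.09 to 0.33.

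**Figure D5:**
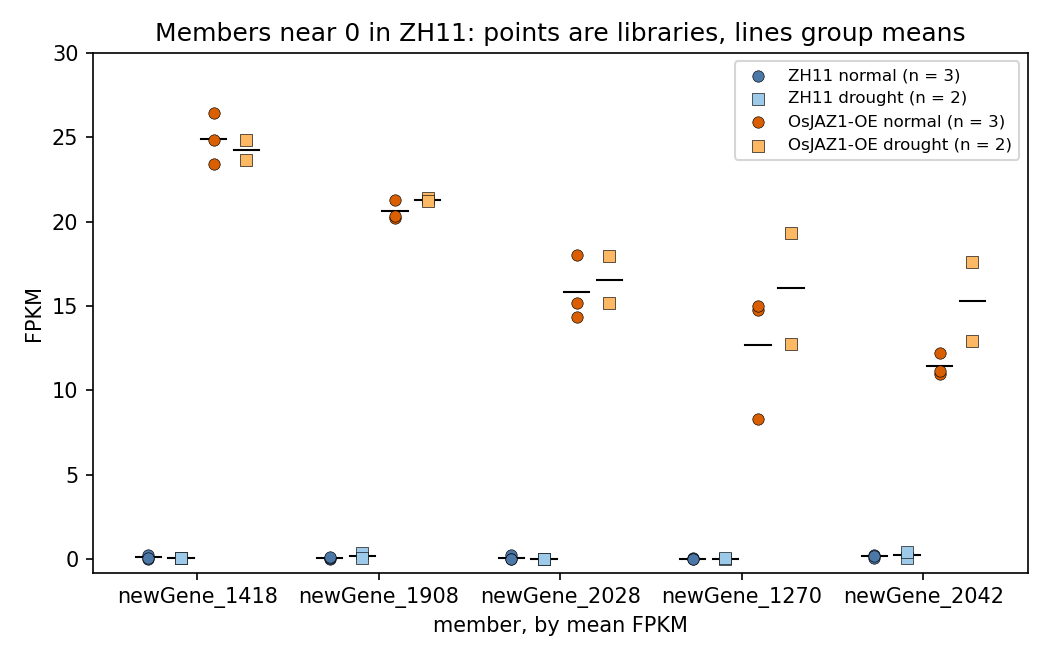
FPKM of the 5 members near 0 in ZH11, with 1 point per library, the 4 groups in separate colours and a line at each group mean. All ZH11 points lie at or below 0.391 FPKM and all OsJAZ1-OE points between 8.29 and 26.5 FPKM, with newGene_1270 the most spread.

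Of the genes beside these 5, 4 could be tested, and none of those was called between genotypes. LOC_Os05g36050, annotated as a serine/threonine-protein kinase and 1705 bases from newGene_1418, was at 15.1 FPKM and had a log2 difference of −0.62 under normal conditions (adjusted p = 0.118 from edgeR). LOC_Os04g47810 and LOC_Os09g28840, annotated as ethylene-responsive related and as a serine carboxypeptidase, had 1.35 and 0.39 and did not pass. LOC_Os08g31720, beside newGene_1908, was too low to be tested. The 5 lie on 4 chromosomes. Over all new genes, 29 of 1014 (2.86%) were under 0.5 FPKM in both ZH11 groups and at 1 FPKM or more in both OsJAZ1-OE groups, and 1 was the other way round. Among the other 54675 IDs the numbers were 107 (0.196%) and 10. These shares rest on unlike bases. All 242 members and 701 of the 772 other new genes had enough fragments to be tested, but only 24850 of all 55689 gene IDs did. The difference between the shares was not tested.

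newGene_2001 was the only member with every group mean at 5 FPKM or more that was called between genotypes. In ZH11 it was at 279.8, 248 and 208 FPKM under normal conditions and at 222 and 166 FPKM under drought. In OsJAZ1-OE it was at 390.1, 399.9 and 476 FPKM and at 692 and 467 FPKM, above all ZH11 libraries. In estimated fragments the ZH11 libraries held 144, 142, 126, 101 and 100, and the OsJAZ1-OE libraries 229, 197, 226, 224 and 184. The log2 difference was 0.67 under normal conditions (adjusted p = 0.0130 from edgeR) and 1.03 under drought (adjusted p = 0.00392 from edgeR). The call under drought was lost with only the groups compared and without OsJAZ1-OE drought replicate 1.

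By adjusted p alone, 16 members passed under normal conditions (9 up, 7 down, where 3.83% of all genes passed, 2.35% up and 1.48% down) and 11 under drought (8 up, 3 down, where 3.68% did, 2.55% up and 1.13% down). The upward ones include the 5 members near 0 in ZH11, which had to differ. Without those 5, 11 members passed under normal conditions (4 up, 7 down) and 6 under drought (3 up, 3 down). In both conditions 8 members passed upward, the same 5 among them, and 3 downward, where 1.54 and 0.378% of all genes did. Because of those 5, this upward count is not comparable with the share of all genes. Besides the 5 and newGene_2001, the upward ones were newGene_80 on chromosome 1 and newGene_1911 on chromosome 8, with log2 differences of 0.23 and 0.46 under normal conditions. The downward ones were newGene_994 on chromosome 3 with −0.29, newGene_1510 on chromosome 6 with −0.60 and newGene_298 on chromosome 10 with −0.49. newGene_994 was at a mean of 46.1 and 43.2 FPKM in ZH11 and of 37.7 and 31.3 FPKM in OsJAZ1-OE, normal and drought. These members were named after their values were seen. The drought and normal comparisons of the genotypes use different libraries.

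The drought response of no member differed between the genotypes in edgeR's test of the difference, which called 0 of 24850 genes. At an unadjusted p under 0.05 there were 17 members (7.02%) and 2097 genes (8.44%), and DESeq2 called 1 member, newGene_977 (adjusted p = 0.0150). In FPKM, drought and normal libraries did not overlap in either genotype and lay in opposite order in 5 members (2.07%) and in 1.11% of all genes. newGene_977 was at 18.8, 20.1 and 19.9 FPKM in ZH11 under normal conditions and at 24.0 and 21.6 FPKM under drought. In OsJAZ1-OE it was at 21.6, 22.4 and 24.1 and then at 18.6 and 21.4 FPKM. Its response was thus upward in ZH11 (0.23, adjusted p = 0.00796 from edgeR), and its value in OsJAZ1-OE was −0.13 (adjusted p = 0.0998 from edgeR). The difference was −0.36 on the log2 scale with a standard error of 0.08.

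The other members with the lowest p for that difference were newGene_16, newGene_1368, newGene_333 and newGene_490. newGene_16, on chromosome 1 from 9464724 to 9475187, had a difference of −0.35 (standard error 0.09). newGene_1368 had −0.29 (standard error 0.09), with 17.5 and 20.5 FPKM in OsJAZ1-OE under drought and 21.2 to 24.8 FPKM in the other 8 libraries. newGene_333, on chromosome 10 from 13185827 to 13187473, had −0.47 (standard error 0.15) and newGene_490 0.28 (standard error 0.09). The adjusted p of these 4 lay between 0.388 and 0.458 in edgeR's test.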

How the data were processed

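RNA of rice shoots was sequenced and FPKM was computed by the authors through BMKCloud. TopHat2, Picard, SAMtools 0.1.18 and GATK appear in the submitters' processing notes without a role. How new genes were assembled, the counting program and the genome build are not given in the sources used here. Deposited files hold, for each transcript, an estimated count of fragments and an FPKM. In each library the estimated counts of low genes were multiples of 1 step, between 0.884 and 1.19, as if scaled by it. The third drought replicate of each genotype, left out by the paper for its low correlation coefficient, was not analysed here. The spread within the drought groups is therefore that of the libraries the paper kept.

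For each gene ID the values of its transcripts were added up, and count sums were rounded. Totals of 32396154 to 34027909 per library make counting error small except for members of few fragments. All 10 libraries and 24850 genes entered a single quasi-likelihood fit in edgeR 4.0.16 under R 4.3.3, with TMM factors, filterByExpr and a mean for each group, with Benjamini-Hochberg adjusted p values over all of them. Alternatives were DESeq2 1.42.0, limma 3.58.1 on log2 of FPKM plus 0.1, RLE, other filters, a replicate block, only the groups compared, each library left out and other thresholds for members. Counts without the factor and members chosen on plain length were added after seeing the data. The test was run on simulated data first. Exact intervals are at 95% and cover counting error only. The study calls its replicates biological. What each stands for (a plant or a pool) is not given, and p values measure the spread between these libraries.

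The nearest annotated ID of a member was an overlapping ID that is no new gene or, failing that, the one with the smallest gap. Neighbour annotations are those of the study's gene lists.

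The named members are the 10 with the highest mean FPKM; per drought comparison the 6 largest increases and 6 largest decreases among called members with no overlap of libraries; members called between genotypes; the 5 lowest p for the difference of the drought responses; 3 on each side of the threshold; the 5 longest and 5 shortest; members within 10 kb of another; and their neighbours. Others are marked as chosen after seeing values. The members and lists were chosen with earlier results of these data known.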

Additional observations from a re-analysis of the deposited data

Results flagged for a closer look

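In 5 members every ZH11 drought library lay on one side of all ZH11 normal libraries in FPKM, and every OsJAZ1-OE drought library on the opposite side of the OsJAZ1-OE normal libraries. That is 2.07% of members, and 1.11% of all genes tested did the same. The difference of the log2 responses, OsJAZ1-OE minus ZH11, was −0.36 for newGene_977, −0.35 for newGene_16, 0.27 for newGene_1000, 0.11 for newGene_135 and 0.42 for newGene_479. None of these differences passed edgeR's test, with adjusted p from 0.293 to 0.796, and DESeq2 called that of newGene_977 alone. newGene_1000, on chromosome 3 from 17809561 to 17811580, was at 7.47, 6.90 and 6.41 and then 6.41 and 6.10 FPKM in ZH11, and at 6.23, 6.05 and 5.87 and then 6.29 and 6.55 FPKM in OsJAZ1-OE. newGene_479, on chromosome 11 from 7062373 to 7062928, was at 7.16, 8.77 and 6.19 and then 4.70 and 5.97 FPKM in ZH11, and at 5.02, 4.92 and 3.91 and then 5.11 and 5.32 FPKM in OsJAZ1-OE. newGene_1000 overlaps LOC_Os03g31270 on the opposite strand. newGene_135, on chromosome 1, was at 5.84 to 6.36 and then 5.79 to 5.83 FPKM in ZH11, and at 4.93 to 5.49 and then 6.31 to 6.68 FPKM in OsJAZ1-OE, and its fitted ZH11 response of 0.06 had the opposite sign to its FPKM.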

How the results depend on the processing

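Of 32 calls of named members, 28 held under every alternative run, and none reversed. Those that held include the genotype calls, in both conditions, of the 5 members near 0 in ZH11. These 5 had to differ, so the holding of their calls says nothing further. Drought calls of newGene_1231, newGene_1210, newGene_1869 and newGene_786 in both genotypes, and of newGene_1677 in OsJAZ1-OE, also held. These were members only through the condition where they were higher, so their holding is limited in the same way. The exceptions were newGene_2001 between genotypes under drought, and newGene_1558, newGene_61 and newGene_1677 under drought in ZH11. The call of newGene_61 was lost with DESeq2 and without ZH11 drought replicate 1. Beyond these, newGene_56 and newGene_1049 fell under a limit for ZH11 drought in some settings, without ZH11 drought replicate 1 among them. The counts of called members under drought in ZH11, under drought in OsJAZ1-OE, between genotypes under normal conditions and between genotypes under drought were 14, 9, 5 and 6. They became 73, 77, 16 and 11 with no fold limit. For members at 1 FPKM or more they were 54, 45, 28 and 29, and at 10 FPKM or more 8, 4, 2 and 3. With every group mean at 5 FPKM or more they were 8, 4, 0 and 1, and for members chosen on plain length 9, 5, 2 and 3. All of these settings but the fold limit change which loci are counted. For the difference of the responses DESeq2 called 1 member and edgeR 0, and the cause was not tested. Leaving out each library gave 12 to 15, 9 to 11, 5 and 5 to 8 calls. The replicate block gave 13, 9, 5, 7 and, for the difference, 0 calls. The labels do not say that a replicate number marks a shared batch. Deviations correlated at −0.18 to 0.32 over 13 pairs with the same number, 12 of them above 0. Over 24 pairs with other numbers they correlated at −0.33 to 0.33, 7 of them above 0. In a drought group of 2 libraries the deviations mirror each other, so many of these pairs are not separate and the counts cannot decide on pairing. Not every pair with the same number was over 0.1, and the samples were not treated as paired. The number of members was 260 with FPKM rescaled to equal library sums, 241 with equal weight for the 4 groups and 188 on plain length.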
